A study of Mus musculus with 6 samples.

Results

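The Siglecs are a family of cell-surface lectins that bind sialic acid, and 6 of the 18341 genes in the deposited table belong to the set described here, chosen by symbol: Siglec1, Siglece, Siglecf, Siglecg, Cd22 and Cd33. All 6 were listed. Siglecs read sialic acid on the glycans of neighbouring cells or of the same cell. Most members carry cytoplasmic tyrosine motifs that recruit the phosphatases SHP-1 and SHP-2 and dampen activating signals, whereas sialoadhesin, the product of Siglec1, lacks such motifs and acts as an adhesion receptor of macrophages. On myeloid cells of tumours the inhibitory Siglecs are studied as receptors for sialic acid on cancer cells.

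The libraries came from monocytes that had been sorted from melanomas grown under the skin of C57BL/6 mice and collected 13 days after the cells were injected. In the first group, BAFF tumours, the injected cells overexpressed BAFF, a cytokine of the TNF family that keeps B cells alive. In the second group, control tumours, control cells had been injected. Each group had 3 libraries. The source label of all 6 libraries gives B16.F10, a pigmented mouse melanoma line of C57BL/6 origin, and not monocytes. The monocyte origin comes from the design text, which was followed here, with B16.F10 read as the injected line. The overexpression is in the injected tumour cells and not in the monocytes, and what the control cells carried, the markers of the sort, the mouse age and sex, and whether each library is 1 mouse are not stated in the labels, so p-values refer only to the spread between these libraries.

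Values are in CPM, counts per 1e6 reads of a library total. In the BAFF tumour libraries 1 CPM stood for 9.65 to 27.6 reads, against 4.72 to 27.3 reads in the control tumour libraries, estimated from the step between low values. The listed genes held 61.1% to 66.1% of the library total in BAFF tumours, against 39.8% to 65.6% in control tumours, where it was 50.2% and 39.8% in libraries 2 and 3. The same 2 libraries held the most reads of the ribosomal RNA gene CT010467.1 (27017 and 43052 CPM). What the rest of their totals consisted of was not tested. Fold changes of the members are given on the deposited scale and after median-of-ratios size factors (RLE), which moved the median log2 fold change of all tested genes to 0.01, against 0.23 as deposited. Broad monocyte and macrophage genes were abundant in every library: Lyz2, the lysozyme of myeloid cells, was at 4740, 5978 and 5254 CPM in BAFF tumours and 5769, 2693 and 2917 CPM in control tumours, and Ccr2, the chemokine receptor of recruited monocytes, between 815 and 926 CPM in BAFF tumours and between 406 and 743 CPM in control tumours.

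Siglec1 was the most abundant member per length of transcript in both groups. Divided by the summed exon length of each gene in GENCODE M21, the level of Siglec1 was 8.49 ± 3.17 CPM per kb in BAFF tumours and 21.8 ± 8.37 CPM per kb in control tumours (SD, n = 3 each, here and below). In BAFF tumours Siglece followed at 2.71 ± 0.47, Cd33 at 2.69 ± 0.89 and Cd22 at 2.22 ± 0.096 CPM per kb. The Cd33 libraries overlapped those of both others, while each Siglece value (2.43 to 3.25) was above each Cd22 value (2.14 to 2.33). Siglecf at 0.931 ± 0.34 and Siglecg at 0.914 ± 0.21 CPM per kb came next and overlapped. In control tumours Cd22 at 3.01 ± 1.28, Siglece at 2.70 ± 1.15 and Cd33 at 1.94 ± 0.79 CPM per kb overlapped, with Siglecg at 0.625 ± 0.015 and Siglecf at 0.372 ± 0.13 CPM per kb below them. Siglec1 also took a smaller part of the family total in each BAFF tumour library than in any control tumour library. It made up 36.2%, 45.6% and 57.6% of the summed CPM per kb of the 6 genes in BAFF tumours 1, 2 and 3, against 70.1%, 76.8% and 66.4% in control tumours 1, 2 and 3. These shares need no library scale and did not overlap, and the exact permutation test gave two-sided p = 0.1, the smallest that 3 against 3 libraries can give. Because the shares of a library sum to 100%, a lower share of Siglec1 raises the others.

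**Figure D1:**
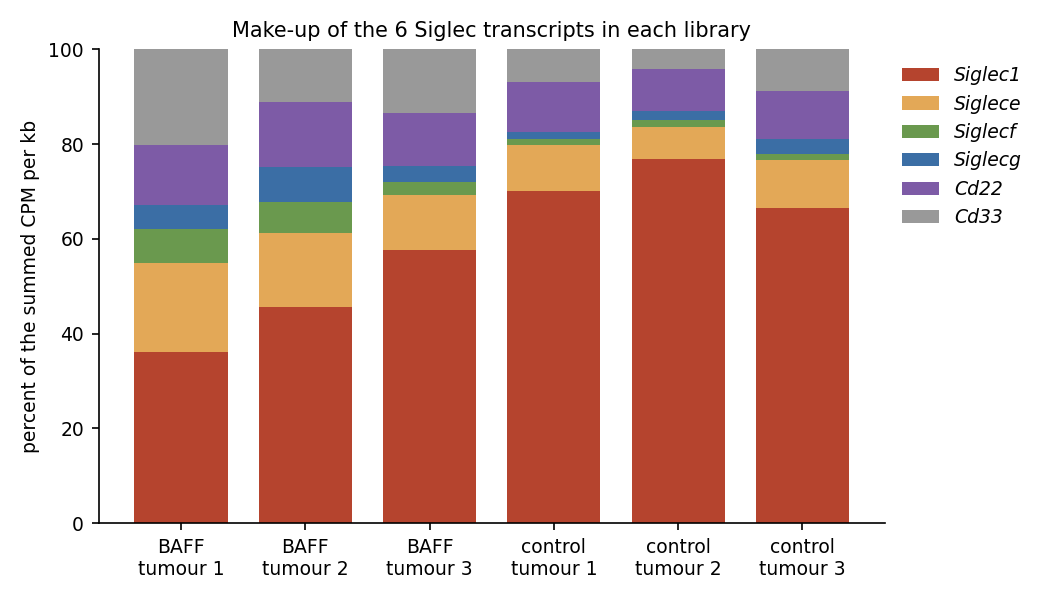
Stacked bars give the percent of the summed CPM per kb that each of the 6 Siglec genes takes in each of the 6 libraries. Siglec1 takes 36.2% to 57.6% in BAFF tumours and 66.4% to 76.8% in control tumours.

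Siglec1 encodes sialoadhesin (CD169), which binds sialic acid in alpha2,3 linkage and marks macrophages of lymph node sinuses and other tissues, and which interferon can induce in monocytes. It stood at 44.8, 50.6 and 86.6 CPM in BAFF tumours 1, 2 and 3, against 207, 169 and 90.2 CPM in control tumours 1, 2 and 3. All BAFF tumour libraries were below all control tumour libraries, but BAFF tumour 3 and control tumour 3 lay close together on this scale. After RLE the values were 41.9, 44.3 and 81.1 in BAFF tumours, against 164, 187 and 135 in control tumours, and the gap between the nearest libraries was wider. Siglec1 fell in BAFF tumours: limma gave a log2 fold change of -1.32 ± 0.32 (SE, adjusted p = 0.00209) on the deposited scale and -1.57 ± 0.21 after RLE (adjusted p = 0.000466). It lay at the 1.20 percentile of the fold changes of the 12824 genes tested. On the deposited scale, where the spread is pooled over genes of similar level, the call was lost without BAFF tumour 1 (adjusted p = 0.186), BAFF tumour 2 (0.132) or control tumour 2 (0.109). After RLE it held in each of the 6 fits that left out 1 library (adjusted p at most 0.00451). Against control tumour 1 alone, with control tumours 2 and 3 left out, the log2 fold change was -1.82 as deposited and -1.61 after RLE. That choice was made after seeing the data, and 1 control library shows no spread between controls.

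A ratio to a second gene of the same library is free of library scale. Set against Csf1r, the growth factor receptor of monocytes and macrophages, Siglec1 stood at 7.11, 7.76 and 12.4 CPM per 100 CPM of Csf1r in BAFF tumours, against 29.1, 39.1 and 21.96 in control tumours. Per 100 CPM of Cd68, a lysosomal membrane protein of macrophages, the values were 10.4, 10.7 and 23.3 in BAFF tumours and 41.2, 46.6 and 34.3 in control tumours. Per 100 CPM of Adgre1 (F4/80) they were 18.9, 14.8 and 31.1 in BAFF tumours and 42.8, 63.3 and 47.0 in control tumours. The groups did not overlap in any of the 3 ratios, each at the smallest exact two-sided permutation p of 0.1. The 3 genes were picked after their values were known.

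**Figure D2:**
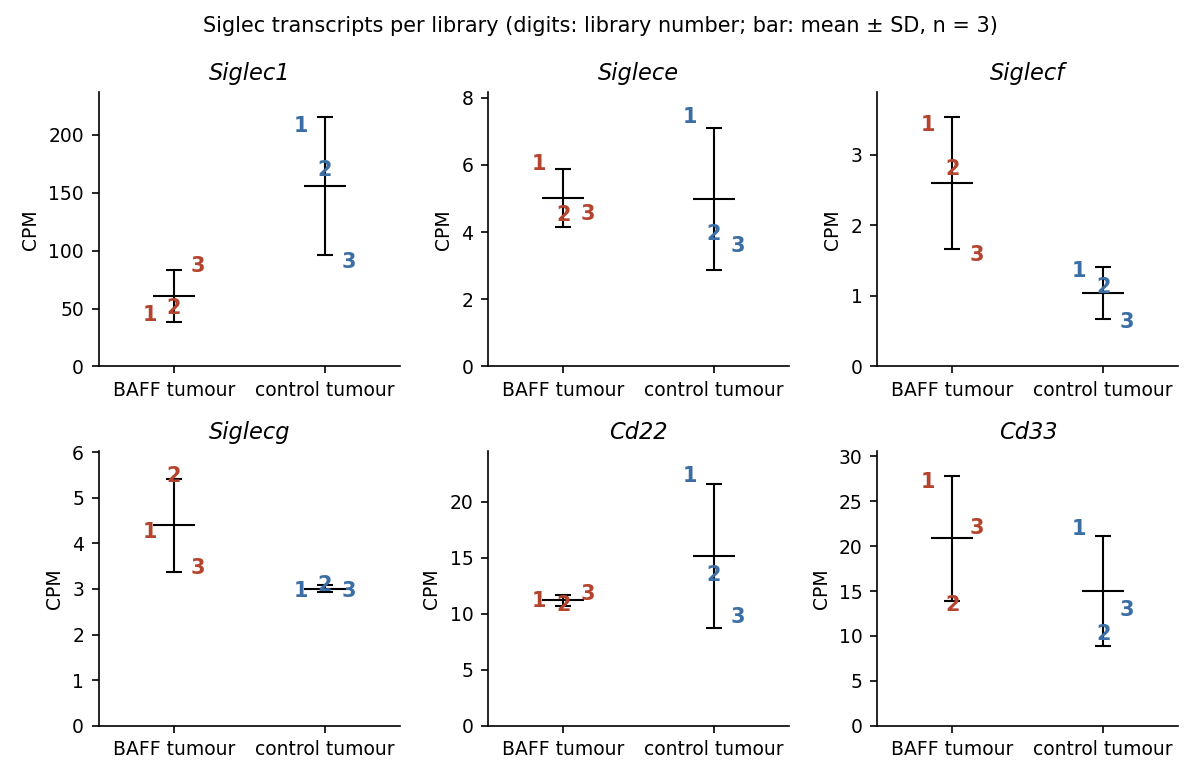
CPM of each Siglec gene on a linear axis from 0, with the library number as the symbol and a bar for the mean ± SD of 3 libraries per group. Siglec1 stands at 44.8 to 86.6 CPM in BAFF tumours and 90.2 to 207 CPM in control tumours, while the groups overlap for Siglece, Cd22 and Cd33.

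Genes of other macrophages and of the tumour moved in the same libraries. Of 7 tested resident macrophage markers 4 fell and 0 rose on the deposited scale, where 3.5% of all tested genes were called lower. After RLE 5 fell, where 9.91% of all tested genes were called lower. The median log2 fold change of the 7 was -1.17 on that scale, where all tested genes had a median of 0.01. Those that fell on both scales were Lyve1, a hyaluronan receptor (log2 -4.07 after RLE), Fcna, a lectin of the ficolin family (-3.08), Folr2, a folate receptor (-2.28), and Cd5l, a secreted protein of tissue macrophages (-1.17). Mrc1, the mannose receptor and the most abundant of the list, fell only after RLE (log2 -0.50). The summed level of the list was 597 to 753 CPM in BAFF tumours and 599 to 1298 CPM in control tumours. Timd4 and Cd209f, which mark settled macrophages of other tissues, were at most 0.311 and 0.109 CPM in BAFF tumours and 0.439 and 1.06 CPM in control tumours. Of 11 tested melanoma markers 10 fell on both scales, among them the pigment genes Dct (log2 -2.32 after RLE), Pmel (-2.28), Tyrp1 (-2.10) and Mc1r (-2.08), and their summed level was 89.9 to 183 CPM in BAFF tumours, against 444 to 767 CPM in control tumours, with no overlap. Of the 10 broad monocyte and macrophage markers 0 were called by limma on the deposited scale (2 at an unadjusted p under 0.05). After RLE Ccr2 and Cd14 rose and Cx3cr1 fell, where 7.18% of all tested genes were called higher and 9.91% lower. The part of these cell populations in the fall of Siglec1 was not tested. In bulk libraries, fewer cells of a type and less RNA per cell cannot be told apart.

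Of 20 tested genes that type I interferon induces, 0 were called by limma on the deposited scale, where 5.31% of all tested genes were called. On that scale 1 of the 20 had an unadjusted p under 0.05. After RLE Ifit3 fell (log2 -0.83 ± 0.12, adjusted p = 0.000914), as did Ifi44 (-1.02, adjusted p = 0.0175) and Ifit2 (-0.64, adjusted p = 0.0368), and 17 were not called. The 3 of 20 called all fell, and of all tested genes 9.91% were called lower on that scale and 17.1% in either direction. Fold changes above 0 were found for 14 of the 20 as deposited and 6 after RLE. Of the 12824 tested genes, 9502 and 6560 were above 0. The median log2 fold change of the list was 0.06 as deposited and -0.19 after RLE, against 0.23 and 0.01 for all tested genes. Ifit3 stood at 42.2, 51.8 and 45.0 CPM in BAFF tumours and 89.3, 82.6 and 45.1 CPM in control tumours, and the groups overlapped on the deposited scale. The part of interferon in the fall of Siglec1 was not tested.

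Siglece encodes an inhibitory receptor of neutrophils, monocytes and macrophages. It stood at 6.01, 4.49 and 4.54 CPM in BAFF tumours, against 7.43, 3.93 and 3.60 CPM in control tumours. The control libraries lay on both sides of the BAFF tumour libraries, and the log2 fold change was 0.05 (95% interval -0.55 to 0.66, adjusted p = 0.940) as deposited and -0.15 after RLE (-0.54 to 0.25, adjusted p = 0.630). Cd33 encodes Siglec-3, a receptor used in humans as a marker of myeloid cells. It stood at 27.2, 13.4 and 22.01 CPM in BAFF tumours and at 21.95, 10.3 and 12.9 CPM in control tumours, again with overlap. Its log2 fold change was 0.46 (95% interval -0.16 to 1.08, adjusted p = 0.486) as deposited and 0.22 (-0.32 to 0.77, adjusted p = 0.594) after RLE. Without control tumour 1 it was called on the deposited scale (log2 0.75, adjusted p = 0.00733), in a fit where the median of all tested genes was 0.43.

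Siglecf encodes the Siglec of mouse eosinophils and alveolar macrophages. It stood at 3.42, 2.79 and 1.58 CPM in BAFF tumours, against 1.35, 1.12 and 0.635 CPM in control tumours. All BAFF tumour libraries were above all control tumour libraries, and the group means differed 2.50-fold. The depth behind these values is low: they correspond to about 33, 77 and 16 reads in BAFF tumours and about 37, 8 and 3 reads in control tumours. Siglecf had a positive log2 fold change of 0.80 ± 0.30, which did not pass (adjusted p = 0.102), and 0.66 ± 0.23 after RLE (adjusted p = 0.0665), at the 96.3 percentile of all tested genes as deposited. Per 100 CPM of Csf1r, Siglecf stood at 0.543, 0.428 and 0.226 in BAFF tumours and 0.190, 0.259 and 0.155 in control tumours, and the groups overlapped. Per 100 CPM of Cd68 the values were 0.792, 0.592 and 0.425 in BAFF tumours and 0.269, 0.309 and 0.241 in control tumours, and these did not overlap. Per 100 CPM of Adgre1 they were 1.44, 0.818 and 0.567 in BAFF tumours and 0.280, 0.420 and 0.331 in control tumours, again without overlap. Siglecf passed without control tumour 1 on the deposited scale (log2 0.91, adjusted p = 0.00511). In that fit the median of all tested genes was 0.43, and 4615 of 12824 genes were called higher. It also passed without BAFF tumour 3 after RLE (log2 0.87, adjusted p = 0.0302). Eosinophil markers gave 2 of 4 tested members called higher and 0 lower as deposited, where 1.81% of all tested genes were called higher: Ccr3, the eotaxin receptor, at 4.98, 8.66 and 6.32 CPM in BAFF tumours and 3.00, 4.77 and 0.635 CPM in control tumours (log2 1.16, adjusted p = 0.00636, and 0.0634 after RLE), and Alox15, a lipoxygenase (log2 0.99, adjusted p = 0.0288, and 0.0449 after RLE). The granule gene Prg2 was at most 0.415 CPM in BAFF tumours and at most 0.140 CPM in control tumours, and the summed level of the list was 25.0 to 36.3 CPM in BAFF tumours and 18.2 to 29.5 CPM in control tumours. The most abundant of the list, Ear2, a ribonuclease, had a log2 fold change of 0.01 as deposited and -0.23 after RLE. The fourth, Rnase2a, also a ribonuclease, had one of -0.55 as deposited and -0.70 after RLE, and neither gene passed. Neutrophil markers had 4 of 8 tested members called higher and 0 lower as deposited, which were Il1r2, a decoy receptor for interleukin-1 (log2 1.55), S100a8 (1.11) and S100a9 (1.07), the subunits of calprotectin, and Cxcr2, a chemokine receptor (0.99). After RLE Il1r2 kept its call (log2 1.31), and S100a8 (adjusted p = 0.176), S100a9 (0.310) and Cxcr2 (0.0624) did not. Csf3r, the receptor of granulocyte colony-stimulating factor and the most abundant of the list (log2 0.49, adjusted p = 0.0354), and Retnlg, a resistin-like protein (0.63, adjusted p = 0.0499), were called higher on that scale only. After RLE 3 of the 8 neutrophil markers and 1 of the 4 eosinophil markers were called higher, beside 7.18% of all tested genes. As deposited 3.5% of all tested genes were called lower. The list had a summed level, as deposited, of 217 to 317 CPM in BAFF tumours and 103 to 226 CPM in control tumours. The part of eosinophils and neutrophils in the Siglecf values was not tested.

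Siglecf, Siglecg, Cd33 and Siglece lie on chromosome 7, as do Cd22, Mag and Siglech, and Siglecf and Siglecg are next to each other among protein-coding genes, as are Cd22 and Mag. Siglec1 lies on chromosome 2. RefSeq promoters (GRCm38.p6, 250 bases before to 50 after the gene start) were at hand for 5 of the 6 members, not for Siglec1. The windows of Siglecf and Cd33 were alike in part: a local alignment paired 120 bases at 78.3% identity, with 14 gap positions left out of that percentage. They shared a run of 16 bases that occurred on either strand in 0 windows of the other 27023 genes. The next longest run shared by a pair of members had 10 bases. The 2 stretches are printed because they are what these 2 members share beyond the rule that chose them, with the shared run in capitals, 5′ to 3′ on the strand of the gene.
Siglecf: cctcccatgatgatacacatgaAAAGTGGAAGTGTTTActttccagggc
Cd33: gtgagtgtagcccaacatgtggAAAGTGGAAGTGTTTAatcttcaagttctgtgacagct
The Siglecf stretch is chr7:43351292-43351340 on the plus strand, with the run at positions -27 to -12 from the gene start. The Cd33 stretch is chr7:43533291-43533350 on the minus strand, with the run at -157 to -142. Siglecf was above all control libraries in each BAFF tumour library, and Cd33 was not, on either scale. The letters GAAANNGAA (core of an interferon response element), TTCNNNGAA (gamma-activated site) and GAGGAAGT (a form of the PU.1 site) were searched as written, on both strands. They were found in 0 of the 5 member windows, and in 9.76%, 9.55% and 3.69% of the windows of all 27025 genes. Other forms of these sites were not searched. At these shares, 0 of 5 windows cannot show that the members lack such sites, and Siglec1 had no window.

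Cd22 and Siglecg are the Siglecs of B cells, the cells for which BAFF is a survival factor, and both restrain signals of the B cell receptor. Cd22 stood at 11.1, 10.8 and 11.7 CPM in BAFF tumours, against 22.3, 13.5 and 9.74 CPM in control tumours, so the groups overlapped as deposited (log2 -0.33 ± 0.32, adjusted p = 0.613). After RLE the values were 10.4, 9.46 and 11.0 in BAFF tumours, against 17.6, 14.9 and 14.5 in control tumours, without overlap. On that scale Cd22 fell, with a log2 fold change of -0.56 ± 0.13 (adjusted p = 0.0129), and leaving out BAFF tumour 2 (adjusted p = 0.0609) or control tumour 1 (0.0530) ended the call. Per 100 CPM of Csf1r, Cd22 stood at 1.76, 1.66 and 1.68 in BAFF tumours and 3.13, 3.11 and 2.37 in control tumours, without overlap, while per 100 CPM of Adgre1 the groups overlapped. The antisense gene Gm29439 overlaps Cd22 on the opposite strand in GENCODE M21, and 7.84% of the 50-base stretches of Cd22 also occur, on either strand, in other genes. The kit does not mark strand, so reads from stretches that the 2 genes share cannot be told apart.

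Siglecg, whose product binds CD24, stood at 4.25, 5.47 and 3.46 CPM in BAFF tumours, against 2.96, 3.09 and 2.96 CPM in control tumours. The BAFF tumour libraries were above the control tumour libraries as deposited, but after RLE the groups overlapped, at 3.98, 4.80 and 3.24 in BAFF tumours and 2.34, 3.42 and 4.42 in control tumours. Its log2 fold change was 0.41 (95% interval -0.19 to 1.01, adjusted p = 0.526) as deposited and 0.20 (-0.26 to 0.67, adjusted p = 0.570) after RLE. Of its 50-base stretches 4.64% also occur in other genes, among them Siglecf and Gm29791, so a part of its reads could have been assigned to either, depending on the counting rule. Cd79a, a subunit of the B cell receptor and a defining marker of B cells, was near 0, at most 0.296 CPM in BAFF tumours and at most 0.212 CPM in control tumours. Ms4a1 and Pax5 were looked for by symbol and had no entry among the deposited genes, so no level can be given for them. The summed level of the 8 B cell markers listed was 48.0 to 58.5 CPM in BAFF tumours and 44.2 to 100.4 CPM in control tumours, of which Ighm, the heavy chain of IgM, gave 20.2, 30.2 and 35.6 CPM in BAFF tumours and 56.8, 24.0 and 22.6 CPM in control tumours. Of 4 tested, 0 were called by limma as deposited (0 also at an unadjusted p under 0.05), and after RLE Blnk, an adaptor that macrophages also transcribe, fell (log2 -0.81, adjusted p = 0.00280). The shares called over all tested genes were 5.31% as deposited and 17.1% after RLE, with 9.91% called lower after RLE.

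The further mouse Siglecs had low levels. Siglech, a receptor of plasmacytoid dendritic cells that signals through the adaptor DAP12, stood at 4.04, 3.30 and 3.55 CPM in BAFF tumours, against 2.89, 2.11 and 1.69 CPM in control tumours. The groups did not overlap on either scale, and the log2 fold change of 0.53 (adjusted p = 0.387), or 0.35 after RLE (adjusted p = 0.202), did not pass. Of 7 tested markers of plasmacytoid dendritic cells, Siglech among them, limma called 0 on either scale (0 as deposited and 1 after RLE at an unadjusted p under 0.05). The shares called over all tested genes were 5.31% as deposited and 17.1% after RLE. The most abundant marker, Tlr7, stood at 78.2 to 85.3 CPM in BAFF tumours and 42.3 to 108 CPM in control tumours. Mag, the Siglec of myelin, stood at 1.66, 1.96 and 2.27 CPM in BAFF tumours and 3.07, 2.25 and 0.847 CPM in control tumours, with overlap (log2 0.02, adjusted p = 0.972). Siglec15 was looked for by symbol and had no entry among the deposited genes.

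Among the 6 members, 1 fell, 0 rose and 5 did not pass on the deposited scale, where 3.5% of all tested genes were called lower, 1.81% higher and 5.31% in either direction. After RLE 2 fell and 0 rose, where 9.91% of all tested genes were called lower, 7.18% higher and 17.1% in either direction. The groups did not overlap for 3 of the 6 as deposited (2 higher and 1 lower), against 18% of all tested genes (11.4% higher and 6.6% lower). After RLE they did not overlap for 3 of the 6 (1 higher and 2 lower), against 35.2% of all tested genes (17.3% higher and 17.8% lower). As deposited these were Siglec1, Siglecf and Siglecg, and after RLE Siglec1, Cd22 and Siglecf. The median log2 fold change of the 6 was 0.23 as deposited and 0.03 after RLE, beside 0.23 and 0.01 for all tested genes.

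**Figure D3:**
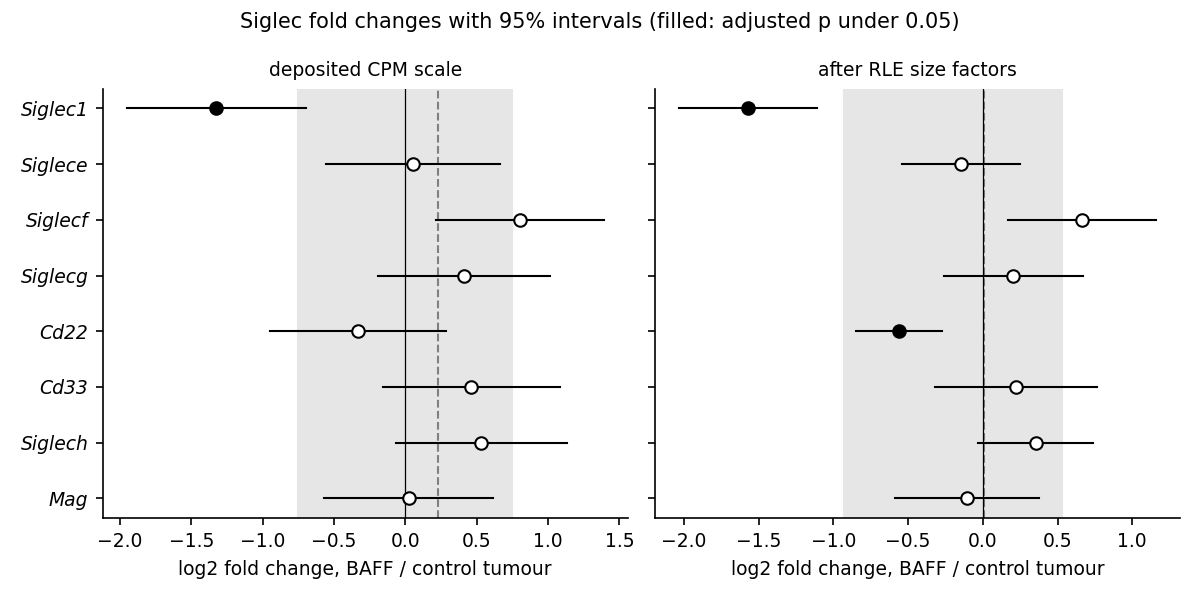
Log2 fold changes of 8 Siglec genes, BAFF over control tumours, with 95% intervals, as deposited on the left and after RLE on the right. Filled circles mark adjusted p under 0.05, the grey band holds the fold changes of all tested genes from the 5% to the 95% quantile (-0.75 to 0.75 as deposited, -0.93 to 0.53 after RLE), the dashed line is their median, and only Siglec1 is filled on both sides.

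**Figure D4:**
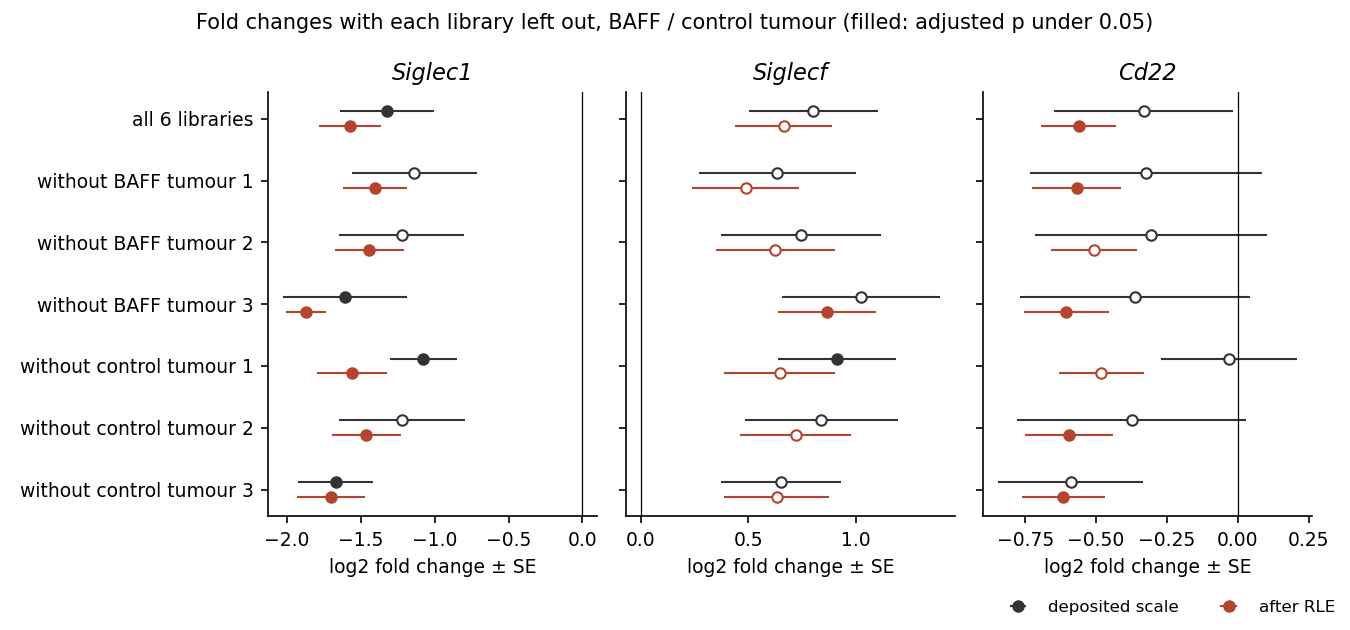
Log2 fold changes ± SE of Siglec1, Siglecf and Cd22 with all 6 libraries and with each library left out, as deposited in dark grey and after RLE in red, filled where the adjusted p was under 0.05. Siglec1 stays between -1.87 and -1.40 after RLE and between -1.67 and -1.08 as deposited.

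Of 14 tested genes that carry or oppose the signals of Siglecs, 1 rose and 0 fell as deposited, and 6 rose and 0 fell after RLE. Over all tested genes, 1.81% were called higher as deposited and 7.18% after RLE. The median over the 14 was 0.51 as deposited and 0.26 after RLE, against 0.23 and 0.01 for all tested genes. Fgr, a Src-family kinase of myeloid cells, stood at 93.6, 117 and 99.4 CPM in BAFF tumours, against 68.4, 47.7 and 38.3 CPM in control tumours. It rose on both scales (log2 1.03 ± 0.32, adjusted p = 0.0306, and 0.78 ± 0.098 after RLE, adjusted p = 0.000333). Socs3, a feedback inhibitor of cytokine signals (log2 0.62 after RLE, adjusted p = 0.00270), Vav1, an exchange factor for small GTPases (0.50, adjusted p = 0.00308), and Syk, the kinase that binds activated receptor tails (0.50, adjusted p = 0.00516), rose after RLE only. The phosphatase gene Ptpn6 (SHP-1) had a log2 fold change of 0.49 (adjusted p = 0.463) and Ptpn11 (SHP-2) of 0.23 (adjusted p = 0.723), and neither passed on either scale. These 2 were chosen after their values were seen.

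Among genes that make, carry and remove sialic acid, Npl fell and Cd24a rose. Npl encodes the lyase that breaks free sialic acid down. It stood at 5.91, 7.03 and 3.55 CPM in BAFF tumours, against 24.2, 14.0 and 7.62 CPM in control tumours, without overlap. It fell on both scales (log2 -1.23 ± 0.31, adjusted p = 0.00390, and -1.45 ± 0.22 after RLE, adjusted p = 0.000964). Of the 7 tested genes of sialic acid synthesis and transport, the other 6 did not pass as deposited. Over all tested genes, 3.5% were called lower as deposited and 9.91% after RLE. After RLE Gne, the rate-limiting enzyme of sialic acid synthesis, fell (log2 -0.76, adjusted p = 0.00946), as did Cmah, which makes the glycolyl form of sialic acid (-0.82, adjusted p = 0.0467), at about 6, 7 and 12 reads in BAFF tumours and 84, 8 and 6 reads in control tumours.

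Of 10 tested sialyltransferases 0 were called by limma as deposited (2 at an unadjusted p under 0.05), where 5.31% of all tested genes were called. After RLE 2 rose and 1 fell, where 17.1% of all tested genes were called in either direction. St6gal1, which adds the alpha2,6-linked sialic acid that CD22 binds, stood at 20.7, 16.5 and 14.3 CPM in BAFF tumours and 39.5, 20.6 and 18.6 CPM in control tumours, and fell after RLE (log2 -0.76, adjusted p = 0.00603). St3gal1, which caps O-glycans (log2 0.48, adjusted p = 0.0399), and St8sia4, a polysialyltransferase (0.36, adjusted p = 0.0459), rose after RLE. Of 4 tested sialidases and sialic acid esterases limma called 0 on either scale (0 as deposited and 1 after RLE at an unadjusted p under 0.05).

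Of 7 tested carriers of sialic acid 1 rose and 0 fell as deposited, where 1.81% of all tested genes were called higher. After RLE 4 rose and 1 fell, where 7.18% of all tested genes were called higher and 9.91% lower. Cd24a, the gene of CD24, stood at 71.7, 58.6 and 51.7 CPM in BAFF tumours, against 32.1, 26.3 and 18.4 CPM in control tumours, without overlap. It rose on both scales (log2 1.24 ± 0.32, adjusted p = 0.00442, and 0.99 ± 0.13 after RLE, adjusted p = 0.000404). Cd44, the hyaluronan receptor (log2 0.59 after RLE, adjusted p = 0.00249), Ptprc, the phosphatase CD45 (0.49, adjusted p = 0.0393), and Cd52, a short sialylated surface peptide (0.45, adjusted p = 0.00971), rose after RLE only. Lgals3bp, a secreted glycoprotein named after its values were seen, fell after RLE (log2 -0.46, adjusted p = 0.00780).

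**Figure D5:**
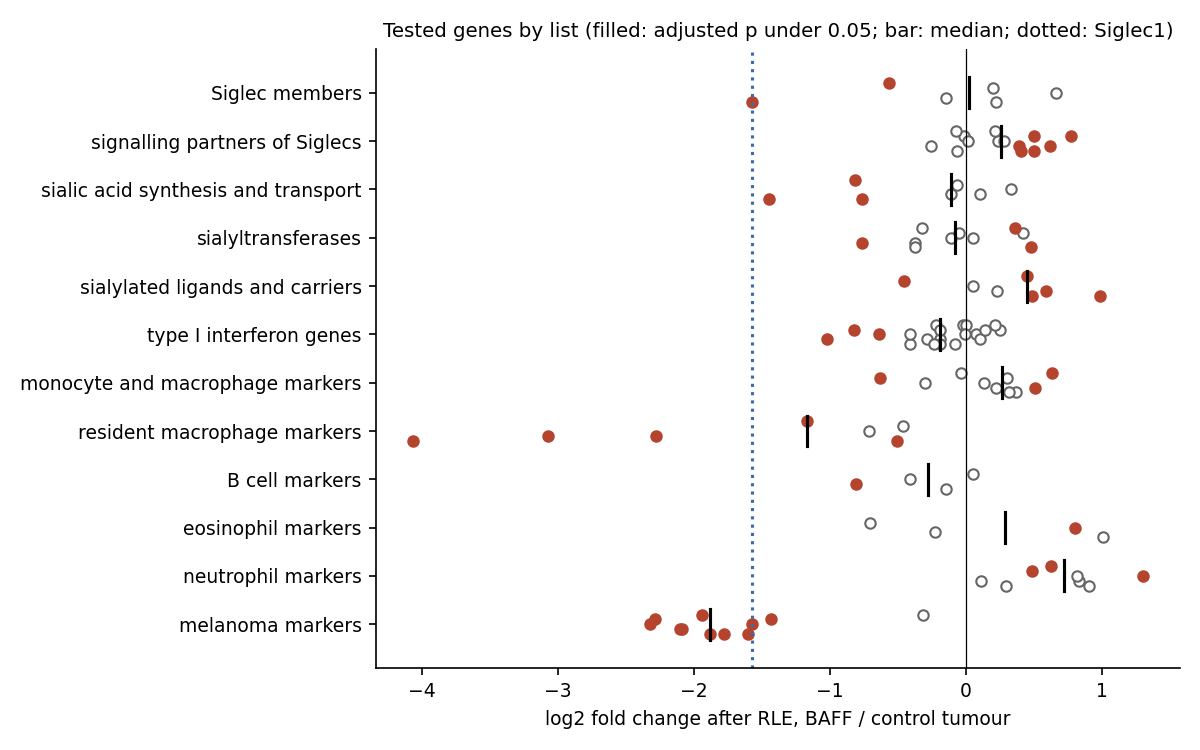
Each circle is the log2 fold change after RLE of a tested gene, BAFF over control tumours, in 12 gene lists, filled where the adjusted p was under 0.05, with a bar for the median of the list and a dotted line at Siglec1 (-1.57). Melanoma markers (median -1.88) and resident macrophage markers (median -1.17) lie on the side of Siglec1, and neutrophil markers (median 0.72) on the other.

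Of 8 tested T and NK cell markers, limma called 0 on either scale (0 also at an unadjusted p under 0.05). Of 8 tested plasma cell markers, 1 rose and 4 fell as deposited, and 3 rose and 4 fell after RLE. Over all tested genes, 1.81% were called higher and 3.5% lower as deposited, and 7.18% and 9.91% after RLE. The immunoglobulin genes Ighg2b (log2 -2.17 after RLE) and Igha (-2.02) and the joining chain gene Jchain (-1.19) fell on both scales, and Sdc1, a proteoglycan that other cells also carry, rose on both (0.77). Xbp1, the most abundant of the list and a transcription factor of secretory cells, rose after RLE (0.46).

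The genes whose values followed each member most closely over the 6 libraries were found by the root mean square difference of log2(CPM + 1) after RLE, each gene centred on its own mean, among genes that averaged at least 5 CPM. For Siglec1 these were Ckap2l and Dlgap5, both genes of the mitotic spindle, and Fcgrt, the neonatal Fc receptor, at differences of 0.19, 0.20 and 0.20, where the median over all candidates was 0.89. For Siglecf they were Ifitm6, Zfp52 and Il7r, at 0.044, 0.080 and 0.084, and for Cd22 they were Rnf144b, Lrp6 and Gna12, at 0.051, 0.057 and 0.065. For Siglecg they were Sem1, Krtcap2 and Cox17, and for Cd33 Ecm1, Sfxn3 and Inf2, at differences of 0.070 to 0.18. For Siglece, Iffo1 and Fubp3 were among the closest, at 0.053 and 0.058. Such a ranking over 6 libraries is a description, and the libraries share their group and their depth. The pseudocount of 1 CPM also flattens a low gene such as Siglecf (mean 1.82 CPM) more than Ifitm6 (20.9 CPM) or Il7r (84.5 CPM).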

How the data were processed

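Monocyte RNA from 3 BAFF tumours and 3 control tumours was sequenced on an Illumina HiSeq with an unstranded TruSeq kit, per the labels' protocols. The values deposited by the authors, for 18341 genes, are in CPM, as read from the numbers themselves: taking 1 step per library, 81.8% to 85.3% of low values were whole multiples of it (tolerance 0.02), so reads were not recovered and no count model was used. The submitters' processing notes name Partek, STAR (2.4.1d) and Bowtie2 (2.2.5) without roles. For build, annotation and counting rule the entry is: not given in the sources used here. A control column with a misspelt name was matched to control tumour 2.

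The 12824 genes that averaged at least 1 CPM were tested with limma-trend (limma 3.58.1, R 4.3.3) on log2(CPM + 1), two-sided, with Benjamini-Hochberg adjustment over all of them and a threshold of 0.05, and again after RLE. The pseudocount understates changes of low genes. All 6 members passed this filter. As deposited, the prior degrees of freedom came out infinite, so the SE there is shared by genes of similar level. TMM factors were computed by the published formula. The method was tested on simulated reads. Floors and estimated reads cover counting error only, and 3 reads were 0.109 to 0.635 CPM.

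The members and gene lists were chosen with earlier results of these data known. Named genes are the members, the other mouse Siglecs, up to 4 called genes per list with the smallest p, the most abundant marker of cell type lists, and the 3 closest genes per member; some results under this rule are not reported here. Sequences are from RefSeq (GRCm38.p6), and exon lengths, the overlap and the shared 50-base stretches from GENCODE M21, which need not be the authors' annotation.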

Additional observations from a re-analysis of the deposited data

How the results depend on the processing

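The direction of Siglec1, Siglecf, Siglecg and Cd22 was the same in every alternative in which they were tested; with a filter at a mean of 5 CPM, Siglecf and Siglecg were not tested. Siglec1 was called in 18 of 21 alternatives, and its log2 fold change ranged from -1.87 to -1.08 with each library left out in turn on either scale. Cd22, not called as deposited, was called with RLE (-0.56), with TMM factors (-0.57), with RLE and the replicate block (-0.56), and without the libraries control tumour 2 and 3 as deposited (-0.93) and with RLE (-0.74), and ranged from -0.62 to -0.031 with each library left out. Siglecf ranged from 0.49 to 1.02, Siglecg from 0.02 to 0.54 and Cd33 from 0.0017 to 0.75 with each library left out, and Siglece, near 0, from -0.27 to 0.33. Siglece turned negative with RLE (-0.15, also with the replicate block), TMM factors (-0.16) and without the libraries control tumour 2 and 3 (-0.50, and -0.32 with RLE), and Cd33 turned negative without those libraries as deposited (-0.12). Leaving these 2 libraries out was chosen after seeing the data, and the single control left is assumed to vary like the other group. The number of members called was 2 with RLE, TMM, RLE with the block and without the libraries control tumour 2 and 3 on either scale, and 0 to 3 with each library left out. Over all tested genes, 681 were called as deposited, 2192 with RLE, 2155 with TMM, 316 at a mean of 5 CPM, 1861 and 1122 without the libraries control tumour 2 and 3 (deposited and RLE), and 167 to 5192 with each library left out, the highest without control tumour 1. Of the other listed genes 28 were called as deposited, 50 with RLE, 48 with TMM, 49 with RLE and the block, and 14 to 69 with each library left out. The cause of these changes was not tested.

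The values showed no pairing by replicate number: the correlation of deviations of same-numbered libraries after RLE was -0.05, 0.05 and -0.04. Only library 2 correlated best with its own number. Such correlations cannot show whether same-numbered samples were collected or handled together. With the replicate number as a block 608 genes were called as deposited and 1940 with RLE, and Siglec1 kept its call (-1.32, adjusted p = 0.00792). At the depth of control tumour 3, 3 reads correspond to 0.635 CPM, which is the level of Siglecf there, so its value in that library has a wide counting error.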
